A study of Mus musculus with 20 samples.

Results

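Disease-associated microglia genes are transcripts that microglia, the resident macrophages of the brain, switch on around amyloid plaques, dying neurons and damaged myelin. The 10 genes described here are Trem2, Tyrobp, Gpnmb, Cst7, Apoe, Lpl, Itgax, Axl, Cd68 and Ctsz, taken as a fixed list of names, and all 10 were found by Ensembl identifier among the 55487 gene entries of the count tables. They were followed in 20 libraries of poly(A) RNA from the hippocampus and cortex of NMRI mice, an outbred stock, whose olfactory bulbs had been removed (olfactory bulbectomy), which is used to model the sporadic form of Alzheimer's disease. Every animal was operated. From day 14 after surgery the mice received a recombinant protein into the nose once daily for 21 days, either human HSP70 (4 µg), the stress-inducible chaperone, or YB-1 (6.4 µg), a nucleic acid-binding cold shock protein. The 4 groups, hippocampus with HSP70, hippocampus with YB-1, cortex with HSP70 and cortex with YB-1, hold 5 libraries each. The sources used here give neither age nor sex of the animals, and sham-operated or vehicle-treated animals were not analysed here, so each treatment comparison only sets one protein against the other.

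The programme is usually described in steps. TREM2, a surface receptor for lipids, lipoproteins and cell debris, has no signalling tail of its own and passes its signal through the adaptor TYROBP. In the course of the programme, microglia lose transcripts of the resting state. They gain those for lipid transport and uptake (Apoe, Lpl), lysosomal digestion (Cd68, Ctsz, Cst7, Gpnmb), adhesion (Itgax) and recognition of dying cells (Axl). Several of these genes are also active outside microglia: Apoe in astrocytes, Lpl in some neurons, and Axl in astrocytes and vessel cells. In bulk tissue, fewer cells of a type and less RNA per cell cannot be told apart.

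Libraries held 6414215 to 15148078 reads assigned to genes. Cortical HSP70 libraries (12283392 to 15148078 reads) were all deeper than cortical YB-1 libraries (6414215 to 10763465), so a preparation or sequencing difference between the cortical treatments cannot be told apart from the treatment. Marker sums followed the labelled tissues, in CPM (TMM-scaled counts relative to library size). The 8 hippocampal marker genes summed to 530.6 to 882 CPM in the hippocampus and 201 to 446 CPM in the cortex. The 8 cortical markers summed to 416 to 514 CPM in the cortex and 157 to 236 CPM in the hippocampus. Single markers did not all follow. With each treatment, 2 of 8 cortical markers were higher in the hippocampus, and 1 of 8 hippocampal markers was lower there. Within the cortex, 5 of 6 tested hippocampal markers were higher with YB-1 than with HSP70 (median log2 fold change 0.40). Of these, 2 had an unadjusted p under 0.05 in edgeR, against 3.02% of all genes on the higher side. The 8 markers summed there to 201 to 363 CPM with HSP70 and 239 to 446 CPM with YB-1. Among cortical markers 4 of 8 were higher (median 0.01). A difference in dissection between the cortical treatments was not tested. None of 18 resting microglia markers outside the list was without reads in any group, and their sum was 1013 to 2797 CPM. The 8 choroid plexus markers met the same rule in the cortex, at sums down to 8.44 CPM, so the rule sets a low bar.

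The upstream sequences are shown for 4 genes, because 3 of them (Trem2, Itgax and Axl) varied together from library to library and the fourth (Gpnmb) had the largest treatment difference in the cortex. Each is the stretch of 250 bases before the transcription start in RefSeq, build GRCm38.p6, read 5′ to 3′ on the strand of the gene, and capitals mark GAGGAA or its reverse complement TTCCTC, letters that can form part of a site for the myeloid factor PU.1. Trem2 lies on the plus strand at chr17:48346151-48346400, Itgax on the plus strand at chr7:128129300-128129549, Axl on the minus strand at chr7:25788734-25788983 and Gpnmb on the plus strand at chr6:49036268-49036517.
Trem2: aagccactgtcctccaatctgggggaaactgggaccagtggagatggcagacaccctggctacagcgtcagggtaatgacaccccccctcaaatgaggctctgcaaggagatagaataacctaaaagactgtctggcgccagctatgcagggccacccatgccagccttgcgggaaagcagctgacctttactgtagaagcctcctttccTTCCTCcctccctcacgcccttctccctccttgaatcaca
Itgax: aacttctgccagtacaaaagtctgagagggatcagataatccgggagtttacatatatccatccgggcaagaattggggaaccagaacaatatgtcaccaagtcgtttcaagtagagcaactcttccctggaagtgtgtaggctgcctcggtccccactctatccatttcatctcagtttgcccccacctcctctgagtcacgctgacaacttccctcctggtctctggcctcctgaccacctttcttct
Axl: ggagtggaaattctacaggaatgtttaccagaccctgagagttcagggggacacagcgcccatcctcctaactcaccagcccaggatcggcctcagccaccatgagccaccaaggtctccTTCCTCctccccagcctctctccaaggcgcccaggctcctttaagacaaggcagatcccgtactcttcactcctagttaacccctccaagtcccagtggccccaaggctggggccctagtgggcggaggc
Gpnmb: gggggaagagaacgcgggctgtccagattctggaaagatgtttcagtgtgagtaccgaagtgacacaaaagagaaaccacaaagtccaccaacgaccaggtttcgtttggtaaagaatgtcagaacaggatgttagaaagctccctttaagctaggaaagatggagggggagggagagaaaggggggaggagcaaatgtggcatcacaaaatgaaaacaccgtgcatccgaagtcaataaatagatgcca

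The letters GAGGAA, searched on both strands, were present in 4 of the 8 listed genes with a promoter entry, namely Trem2, Apoe, Axl and Cd68, against 23.1% of 27025 mouse promoters of the same length. In Trem2 and Axl the match began 40 and 130 bases before the start. The palindrome CACGTG, the core recognised by MITF and its relatives that drive lysosomal genes, was present in 0 of the 8 and in 6.05% of all promoters, and TATAAA in 0 of the 8 and in 13% of all. These are matches of letters only.

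The levels of the 10 genes spanned a wide range. Per kilobase of exon, Apoe, the main lipid carrier protein of the brain, had a median of 1996 CPM per kilobase over the 20 libraries. Ctsz, a lysosomal carboxypeptidase, followed at 96.4, Tyrobp at 47.8, Axl at 23.0, Cd68 at 13.9 and Trem2 at 7.21 CPM per kilobase. This order held in all 20 libraries from Apoe down to Cd68, while Cd68 exceeded Trem2 in 18 of 20. Cst7 (2.70), Itgax (2.41), Gpnmb (1.83) and Lpl (1.82 CPM per kilobase) formed a low group whose neighbours exchanged places: Gpnmb exceeded Lpl in 9 of 20 libraries. Cst7 rested on as few as 7 reads in a library and Itgax on as few as 13. The lengths are unions of all annotated exons, 667 bases for Tyrobp, 4946 for Trem2 and 10478 for Lpl. The order therefore depends on them. Without division by length Trem2 lay above Cd68, with means of 34.2 and 16.1 CPM in the hippocampus with HSP70.

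**Figure D1:**
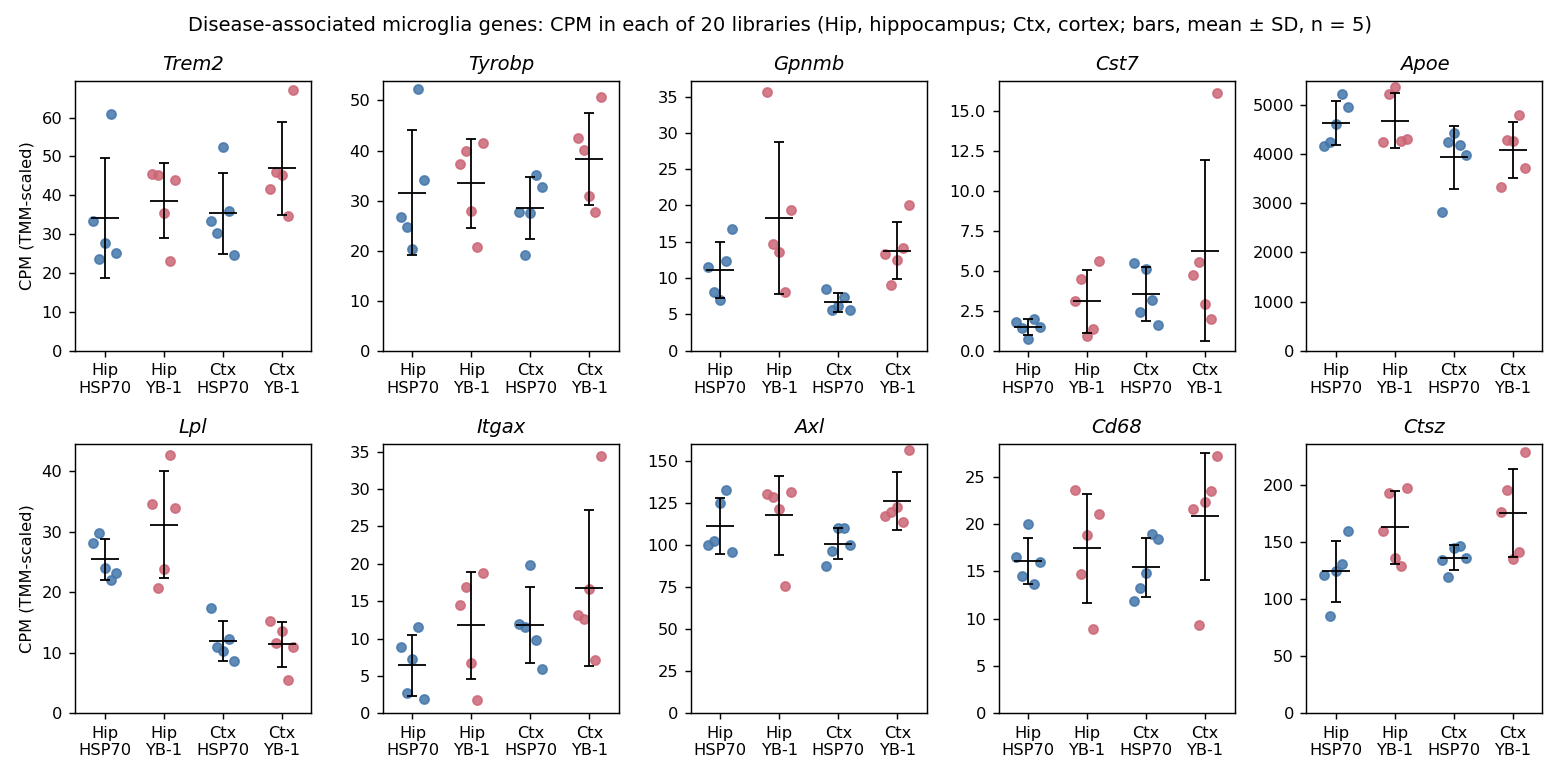
TMM-scaled CPM (vertical axes, linear, starting at 0) of the 10 genes in each of 20 libraries; points are libraries and the bars give the mean and SD of 5 libraries. In the cortex, Gpnmb and Axl are the genes whose HSP70 and YB-1 points do not overlap, and Lpl is higher in the hippocampus than in the cortex in every library.

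In the cortex, Gpnmb was at a 2.07-fold level in mice given YB-1 relative to HSP70, and 9 of the 10 genes, all but Lpl, had positive differences (log2 fold change above 0), against 50.9% of all genes. No gene passed the test. Members called by edgeR's quasi-likelihood test at an adjusted p of 0.05 numbered 0 of 10, against 0% of the 14114 genes tested. At an unadjusted p under 0.05, 4 of 10 (Gpnmb, Axl, Ctsz and Tyrobp) were higher with YB-1, against 3.02% of all genes on the higher side, and 0 were lower, against 2.47%. The groups did not overlap, on the higher side, for 2 of 10, against 0.312% of all genes, and on the lower side for 0 of 10, against 0.517%. The median log2 fold change (YB-1 against HSP70) was 0.42 over the 10 genes and 0.01 over all genes. Leaving out 1 library moved these values: without YB-1 replicate 5 the count of 4 fell to 1 (Gpnmb) and the median was 0.24, and without HSP70 replicate 2 the count was also 1. The names were listed with earlier results of these libraries known, among them the cortical value of Gpnmb, so these counts are descriptive.

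The TREM2 receptor and its adaptor were both on the higher side in the cortex. Trem2 (ENSMUSG00000023992) was at 33.3, 30.4, 52.5, 35.9 and 24.7 CPM in HSP70 replicates 1 to 5. With YB-1 it was at 41.6, 46.0, 45.2, 34.7 and 67.0 CPM. The groups overlapped, with HSP70 replicate 3 above all YB-1 libraries but replicate 5. Its log2 fold change was 0.41 ± 0.20 (SE; unadjusted p = 0.0602, adjusted p = 0.858 in edgeR), 0.24 without YB-1 replicate 5.

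Tyrobp (ENSMUSG00000030579), which carries the activation motif for TREM2 and other myeloid receptors, was at 27.8, 19.0, 27.6, 35.1 and 32.7 CPM with HSP70. It was at 42.4, 40.0, 31.0, 27.7 and 50.7 CPM with YB-1. Replicates 1, 2 and 5 of the YB-1 group lay above every HSP70 library and replicates 3 and 4 within their range. This was a log2 fold change of 0.43 ± 0.19 (unadjusted p = 0.0349, adjusted p = 0.858 in edgeR).

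Gpnmb (ENSMUSG00000029816), a transmembrane glycoprotein of lysosomes in lipid-laden macrophages, was at 8.52, 5.54, 6.16, 7.37 and 5.66 CPM with HSP70. With YB-1 it was at 13.3, 9.09, 12.4, 14.1 and 20 CPM. All YB-1 libraries lay above all HSP70 libraries, on means of 6.65 ± 1.27 and 13.8 ± 3.97 CPM (SD, n = 5). The log2 fold change of 1.05 ± 0.22, a fold of 2.07, had the 4th smallest p among the 14114 genes tested and did not pass (adjusted p = 0.597 in edgeR). DESeq2 called it (adjusted p = 0.0444), as did edgeR without a filter on low counts (adjusted p = 0.0481). Over the other planned settings, leaving out single libraries included, the log2 fold change ran from 0.88 to 1.18. It was 1.18 after all cortical libraries were thinned to equal depth.

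Among the lysosomal genes, Ctsz (ENSMUSG00000016256) in the cortex was at 135, 119.7, 145, 147 and 136 CPM in the HSP70 group. The YB-1 libraries held 176, 196, 135, 142 and 229 CPM. Of the YB-1 libraries, replicates 1, 2 and 5 exceeded every HSP70 library and replicates 3 and 4 did not. Ctsz had a log2 fold change of 0.36 ± 0.15 (unadjusted p = 0.0289, adjusted p = 0.858 in edgeR). Cd68 (ENSMUSG00000018774), a scavenger receptor of the late endosome widely used to stain phagocytic microglia, spanned 11.9 to 18.9 CPM in the HSP70 group and 9.36 to 27.2 CPM in the YB-1 group, at a log2 fold change of 0.43 ± 0.23. Cst7 (ENSMUSG00000068129), which encodes cystatin F, an inhibitor of lysosomal proteases, had a log2 fold change of 0.83 ± 0.50. That value came largely from 1 library: YB-1 replicate 5 was at 16.1 CPM and the other 4 YB-1 libraries at 2.02 to 5.56 CPM, within or next to the HSP70 range of 1.60 to 5.48 CPM. Without that library the log2 fold change was 0.11.

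Of the adhesion and recognition genes, Axl (ENSMUSG00000002602), a receptor tyrosine kinase that binds phosphatidylserine on dying cells through GAS6, was at 87.7, 96.7, 109.9, 109.9 and 100.3 CPM with HSP70 in the cortex. With YB-1 it was at 118, 119.6, 122, 114 and 156 CPM. The groups did not overlap, but by a narrow gap, 109.9 against 114 CPM. Axl had a log2 fold change of 0.32 ± 0.13 (unadjusted p = 0.026, adjusted p = 0.858 in edgeR). Itgax (ENSMUSG00000030789), the integrin subunit CD11c, spanned 5.88 to 19.8 CPM in the HSP70 group and 7.16 to 34.4 CPM in the YB-1 group. Its log2 fold change of 0.52 ± 0.38 was 0.08 without YB-1 replicate 5 and 0.79 without HSP70 replicate 3.

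The 2 lipid genes differed little between treatments in the cortex. Apoe (ENSMUSG00000002985) had means of 3935 ± 644 CPM under HSP70 and 4082 ± 564 CPM under YB-1 (SD, n = 5), a log2 fold change of 0.05 ± 0.16. Lpl (ENSMUSG00000015568), the lipase that frees fatty acids from lipoproteins, was at 11.9 ± 3.33 and 11.4 ± 3.71 CPM, a log2 fold change of -0.05 ± 0.25. Both signs turned with the processing: limma-voom with quality weights gave -0.10 for Apoe and 0.15 for Lpl. Differences this small were not detectable here, and even that of cortical Gpnmb, 1.05 ± 0.22, did not pass the test in edgeR.

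**Figure D2:**
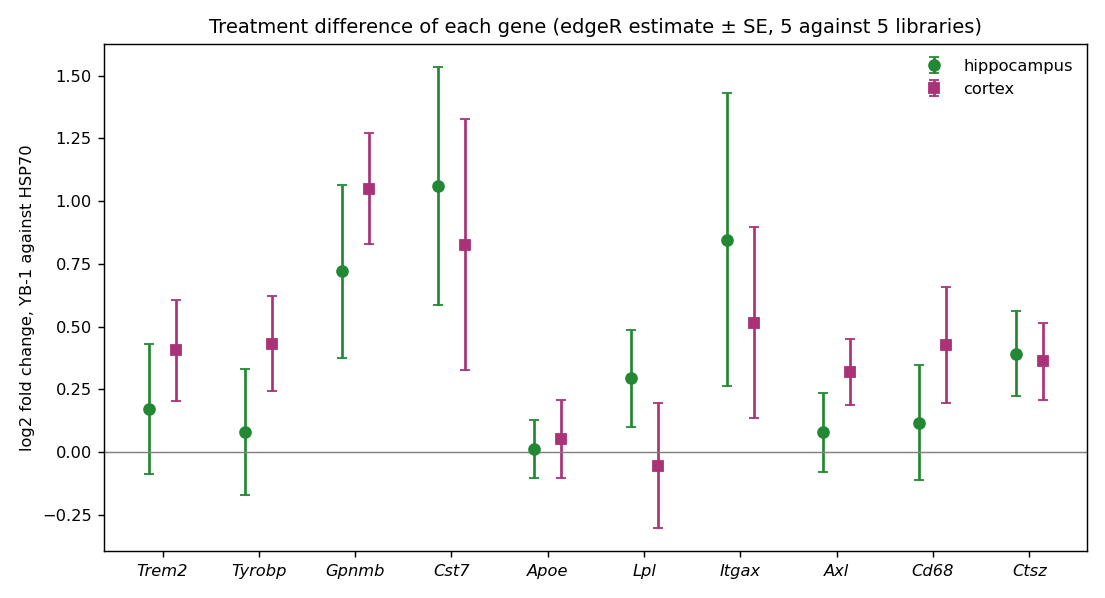
Log2 fold change of YB-1 against HSP70 (vertical axis) for each gene, in the hippocampus (circles) and the cortex (squares), with the standard error of the edgeR fit as bars. Gpnmb (1.05) and Cst7 (0.83) lie highest in the cortex, Cst7 (1.06) and Itgax (0.85) in the hippocampus, and Apoe lies at 0.05 and 0.01.

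In the hippocampus all 10 genes had positive differences with YB-1, from 0.01 for Apoe to 1.06 for Cst7, with no gene past the test. Called genes numbered 0 of 10, against 0% of the 13723 tested. At an unadjusted p under 0.05, 2 of 10 (Ctsz and Cst7) were higher, against 1.41% of all genes, and none was lower, against 0.984%. The groups overlapped for all 10, while the share of all genes without overlap was 0.175% on the higher and 0.299% on the lower side. A log2 fold change above 0 was found in 10 of 10, against 49.3% of all genes, and the median was 0.23 over the 10 genes and -0.0030 over all. The count above 0 was 9 without HSP70 replicate 1, 2 or 3, and without YB-1 replicate 1, 2, 3 or 5. Several of the genes varied together from library to library, so their signs are not independent in either tissue. The count of 2 was 0 without YB-1 replicate 5, HSP70 replicate 2 or HSP70 replicate 3, 1 without HSP70 replicate 1 or YB-1 replicate 1, and 4 without YB-1 replicate 4. Without HSP70 replicate 4 the median was 0.38. In both tissues at once, 9 of 10 were above 0 (Lpl was not), against 28.5% of the 13483 genes tested in both.

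Ctsz in the hippocampus was at 121, 85.3, 125, 131 and 159.7 CPM in HSP70 replicates 1 to 5. The YB-1 libraries held 160.2, 194, 136, 129 and 198 CPM. Replicates 1, 2 and 5 of the YB-1 group again lay above every HSP70 library, the first of them by a narrow gap. For Ctsz the log2 fold change was 0.39 ± 0.17 (unadjusted p = 0.0353, adjusted p = 1 in edgeR), and 0.28 to 0.50 when single libraries were left out. Cst7 was at 1.82, 1.42, 0.713, 1.97 and 1.503 CPM under HSP70, and YB-1 replicates 1 to 5 held 3.10, 4.47, 0.933, 1.35 and 5.60 CPM. The same replicates 1, 2 and 5 were the high ones, and replicates 3 and 4 lay within the HSP70 range. The log2 fold change of Cst7 was 1.06 ± 0.47 (unadjusted p = 0.0409, adjusted p = 1 in edgeR).

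Gpnmb in the hippocampus was at 11.5, 8.14, 7.03, 12.3 and 16.8 CPM in HSP70 replicates 1 to 5. In the YB-1 libraries it was at 35.6, 14.6, 13.6, 8.12 and 19.3 CPM. Replicate 1 of the YB-1 group stood far above the rest and replicate 4 at the low end of the HSP70 group. The log2 fold change was 0.72 ± 0.34 (unadjusted p = 0.0542, adjusted p = 1 in edgeR), and 0.33 without YB-1 replicate 1. Itgax spanned 1.95 to 11.5 CPM in the HSP70 group and 1.76 to 18.8 CPM in the YB-1 group, at a log2 fold change of 0.85 ± 0.58.

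Trem2 in the hippocampus was at 33.4, 23.7, 27.7, 60.8 and 25.2 CPM in HSP70 replicates 1 to 5. The YB-1 libraries held 45.5, 45.1, 35.3, 23.0 and 44.0 CPM. HSP70 replicate 4 was the highest library of all 10 and YB-1 replicate 4 the lowest. The log2 fold change of 0.17 ± 0.26 was 0.49 without HSP70 replicate 4 and 0.07 without HSP70 replicate 2. Tyrobp had the same high library, at 52.2 CPM against 20.4 to 34.1 CPM in the other HSP70 libraries, and its log2 fold change of 0.08 ± 0.25 was 0.34 without it and -0.05 without HSP70 replicate 3. Axl (0.08 ± 0.16), Cd68 (0.12 ± 0.23), Lpl (0.29 ± 0.19) and Apoe (0.01 ± 0.12) differed by less than 2 standard errors. Without YB-1 replicate 4, Axl was at 0.20 and Cd68 at 0.28. Leaving out YB-1 replicate 1 put Cd68 at -0.02, and without YB-1 replicate 4 Lpl was at 0.15.

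The treatment difference itself was not shown to differ between the tissues. In the model of all 4 groups, 0 of 10 genes passed for the interaction (hippocampal minus cortical treatment difference), against 0% of 14616 genes, and 0 of 10 had an unadjusted p under 0.05, against 1.55%. The estimates ran from -0.35 ± 0.33 for Tyrobp to 0.34 ± 0.32 for Lpl, and Gpnmb was at -0.33 ± 0.42. Leaving out 1 hippocampal library moved these: Tyrobp was at -0.09 without HSP70 replicate 4, and Gpnmb at -0.73 without YB-1 replicate 1 and -0.15 without YB-1 replicate 4. Lpl was at 0.16 without cortical HSP70 replicate 1.

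Other genes of the programme gave a weaker picture. Of 30 further disease-associated microglia genes, 25 were tested in each tissue. In the cortex 19 of them were above 0 (median 0.12), 3 with an unadjusted p under 0.05 on the higher side, and in the hippocampus 15 were above 0 (median 0.07), with 2 such genes. Over all genes the shares above 0 were 50.9% and 49.3%, and those with such a p on the higher side 3.02% and 1.41%. None of the 25 passed the adjusted test. Hcar2, the hydroxybutyrate receptor, averaged 2.98 ± 0.757 CPM in the cortical HSP70 libraries and 7.58 ± 3.83 CPM in the YB-1 libraries (SD, n = 5). Its log2 fold change was 1.36 ± 0.33 there and 1.09 ± 0.37 in the hippocampus. Lgals3, a galectin of phagocytes, was at 1.02 ± 0.34 in the cortex, and Cd52, a small leukocyte glycoprotein, at 0.64 ± 0.23 in the hippocampus.

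Among 13 tested genes of TREM2 signalling and shedding, 10 were above 0 in the cortex (median 0.11) and 12 in the hippocampus (median 0.26). Plcg2, the phospholipase downstream of the receptor, had a log2 fold change of 0.49 ± 0.21 in the cortex and 0.37 ± 0.22 in the hippocampus. Inpp5d, a lipid phosphatase that dampens the signal, was at 0.35 ± 0.15 in the cortex, and Vav1, an exchange factor, at 0.35 ± 0.23 in the hippocampus. The unadjusted p was under 0.05 for Plcg2 and Inpp5d in the cortex (3.02% of all genes on the higher side) and for no gene of this list in the hippocampus (1.41%).

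Partners of the adhesion, recognition and protease genes were examined in the same way. All 6 genes of a list of beta2 integrins, the family of Itgax, and their partners were above 0 in both tissues. Their medians were 0.43 in the cortex and 0.45 in the hippocampus. In the cortex, Icam1, a ligand of these integrins, was at 0.73 ± 0.24 and Fermt3, which activates them, at 0.42 ± 0.20, the 2 genes of the 6 with an unadjusted p under 0.05. In the hippocampus Itgam was at 0.56 ± 0.28 and Itgal at 0.86 ± 0.45, and 0 of the 6 had an unadjusted p under 0.05. The ligands and sister receptors of Axl were divided, 2 above and 2 below 0 in each tissue, with Mertk at 0.17 ± 0.19 and Pros1 at -0.12 ± 0.22 in the cortex and Gas6 at -0.18 ± 0.20 and Tyro3 at -0.15 ± 0.13 in the hippocampus. Of 6 proteases and cystatins around cystatin F, 5 were above 0 in each tissue. Ctsc, the protease that activates granule enzymes, was at 0.53 ± 0.40 in the cortex and 0.68 ± 0.32 in the hippocampus.

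Lipid handling and lysosomal membrane genes were counted in the same way. Of 17 tested lipoprotein receptor and lipid genes, 13 were above 0 in the cortex (median 0.17) and 7 in the hippocampus (median -0.02), none with an unadjusted p under 0.05. Lipa, the acid lipase of lysosomes, was at 0.24 ± 0.16 in the cortex. In the hippocampus the smallest p-values were those of Apoc1 (0.59 ± 0.31) and Npc2 (0.19 ± 0.13). Of 11 lysosomal genes, 6 were above 0 in the cortex (median 0.03) and 8 in the hippocampus (median 0.09). Laptm5, a lysosomal protein of blood-derived cells and microglia, was at 0.49 ± 0.18 in the cortex and 0.44 ± 0.19 in the hippocampus. Tmem106b was at -0.48 ± 0.24 in the cortex, and Hexa at 0.24 ± 0.11 in the hippocampus.

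Resting microglia markers lay mostly on the same side. Of the 18 markers that are not among the 10 genes, 17 were tested in the cortex, 14 of them above 0, with a median of 0.22. In the hippocampus 15 of 18 were above 0, with a median of 0.17. Csf1r, the receptor that keeps microglia alive, was at 0.35 ± 0.16 in the cortex, and C1qc, a complement subunit, at 0.56 ± 0.24 in the hippocampus, while Fcrls was at -1.41 ± 0.46 in the hippocampus. In the cortex the summed level of the 18 markers was 1307 to 1871 CPM under HSP70 and 1444 to 2797 CPM under YB-1, and in the hippocampus 1013 to 1823 and 1070 to 2129 CPM. The groups overlapped in both tissues, and the part of these markers in the results above was not tested.

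Levels were also set against that sum within each library. Cortical Gpnmb equalled 0.429 ± 0.0972% of the resting marker sum with HSP70 and 0.731 ± 0.173% with YB-1 (SD, n = 5), with ranges of 0.329 to 0.589% and 0.493 to 0.979% that overlapped. The shares of Ctsz were 8.76 ± 0.693% and 9.25 ± 1.04%, those of Axl 6.47 ± 0.624% and 6.74 ± 0.937%, and those of Tyrobp 1.81 ± 0.337% and 2.01 ± 0.192%. The treatment means of these 3 genes lay within about 1 SD of each other. The same held for cortical Trem2 (2.23 ± 0.415% and 2.45 ± 0.198%) and for hippocampal Gpnmb (0.802 ± 0.248% and 1.05 ± 0.422%). In the hippocampus some mean shares were lower with YB-1 than with HSP70. These were Trem2 (2.38% with HSP70 and 2.30% with YB-1), Tyrobp (2.23% and 1.98%), Axl (8.16% and 7.13%), Cd68 (1.20% and 1.04%) and Apoe (340% and 298%). Those of Gpnmb, Cst7, Lpl, Itgax and Ctsz were higher there, and the ranges of the treatments overlapped for every gene.

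Markers of other cells that can express these genes were read alongside. The sum of 8 monocyte and neutrophil markers was 14.9 to 65.6 CPM under HSP70 and 28.1 to 109.4 CPM under YB-1 in the cortex, and 7.43 to 33.7 and 19.2 to 87.2 CPM in the hippocampus. It includes Ly6c2, whose reads may be shared with the closely similar Ly6c1 and are uncertain. Of these markers, the 4 tested in the cortex were all above 0 (median 0.775). The 2 tested in the hippocampus were too (median 1.06). Ngp, a neutrophil granule gene, was at 2.22 ± 0.78 in the cortex, and Retnlg and Camp had 0 reads in the hippocampal HSP70 and YB-1 groups, respectively. The sum of 8 border macrophage markers was 16.4 to 34.1 CPM under HSP70 and 16.2 to 24.2 CPM under YB-1 in the cortex, and 17.5 to 40.7 and 13.1 to 18.8 CPM in the hippocampus. Of these, Mrc1 was at -0.97 ± 0.37 in the cortex and F13a1 at -1.89 ± 0.58 in the hippocampus. The sum of 10 astrocyte markers was 3650 to 4411 CPM under HSP70 and 3966 to 4603 CPM under YB-1 in the cortex, where 8 of the 10 were below 0 (median -0.06) and Gfap was at 0.52 ± 0.17. All 6 tested plasma and B cell markers were above 0 in the hippocampus (median 0.54) and 6 of 7 in the cortex (median 0.35), none with an unadjusted p under 0.05. Their sum was 2721, 2874, 1060, 323 and 2575 CPM in hippocampal YB-1 replicates 1 to 5, so the libraries high in it were those high in Ctsz and Cst7. These libraries were also the high ones in resting microglia markers, at 2012, 1944 and 2129 CPM against 1311 and 1070 CPM in replicates 3 and 4. Endothelial markers were above 0 for 8 of 8 in the hippocampus (median 0.18) and 5 of 8 in the cortex (median 0.04). Choroid plexus markers spanned 37.0 to 1678 CPM under HSP70 and 137 to 1023 CPM under YB-1 in the hippocampus. The part of any of these cells in the results was not tested.

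Between tissues, Lpl was the one of the 10 genes that passed the test. Under HSP70 its hippocampal libraries held 28.2, 29.7, 24.0, 22.1 and 23.1 CPM and its cortical ones 17.4, 10.9, 10.4, 12.2 and 8.64 CPM. Under YB-1 the hippocampal libraries held 34.6, 20.7, 23.9, 42.6 and 34.0 CPM and the cortical ones 15.3, 11.7, 13.6, 5.51 and 10.9 CPM. Every hippocampal library lay above every cortical library, which under each treatment is a lack of overlap seen for 4.74% (HSP70) and 3.35% (YB-1) of all genes. The log2 fold change of hippocampus against cortex was 1.09 ± 0.23 with HSP70 (adjusted p = 0.00222) and 1.43 ± 0.23 with YB-1 (adjusted p = 0.000183) in edgeR.

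The other 9 genes did not pass between tissues, so 1 of 10 was called with each treatment, against 8.61% of 14616 genes with HSP70 and 6.51% with YB-1. Cst7 was lower in the hippocampus on average, by log2 fold changes of -1.25 ± 0.52 with HSP70 (adjusted p = 0.163 in edgeR) and -1.02 ± 0.50 with YB-1 (adjusted p = 0.308). With the animal as a block the HSP70 value was -1.20 and passed (adjusted p = 0.0267). Gpnmb leaned to the hippocampus, at 0.74 ± 0.30 with HSP70 and 0.41 ± 0.30 with YB-1, the latter falling to 0.01 without hippocampal YB-1 replicate 1. Itgax was at -0.84 ± 0.55 and -0.52 ± 0.54, and Apoe at 0.24 ± 0.13 and 0.20 ± 0.13. Cst7 with YB-1 was at -0.29 and Itgax at -0.08 without cortical YB-1 replicate 5.

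From library to library within groups, most of the genes varied with the resting microglia markers, to unlike degrees, and Apoe and Lpl did not. Over the 20 libraries, which are not independent where same numbers mark 1 animal and which share differences in depth and dissection, the deviations of log2 CPM from the group means correlated with Pearson's r of 0.87 for Trem2 with Itgax, 0.82 for Axl with Itgax and 0.76 for Axl with Trem2. Tyrobp followed Ctsz (0.70) and Trem2 (0.69). Of 45 pairs, 32 were above 0, with a median of 0.42. Trem2, Tyrobp, Ctsz, Itgax, Cst7 and Axl had r of 0.77 to 0.85 with the summed resting markers, Gpnmb 0.64 and Cd68 0.39. Apoe and Lpl stood outside, at -0.01 and -0.05 with that sum and -0.78 with each other. These values are descriptions without a test.

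**Figure D3:**
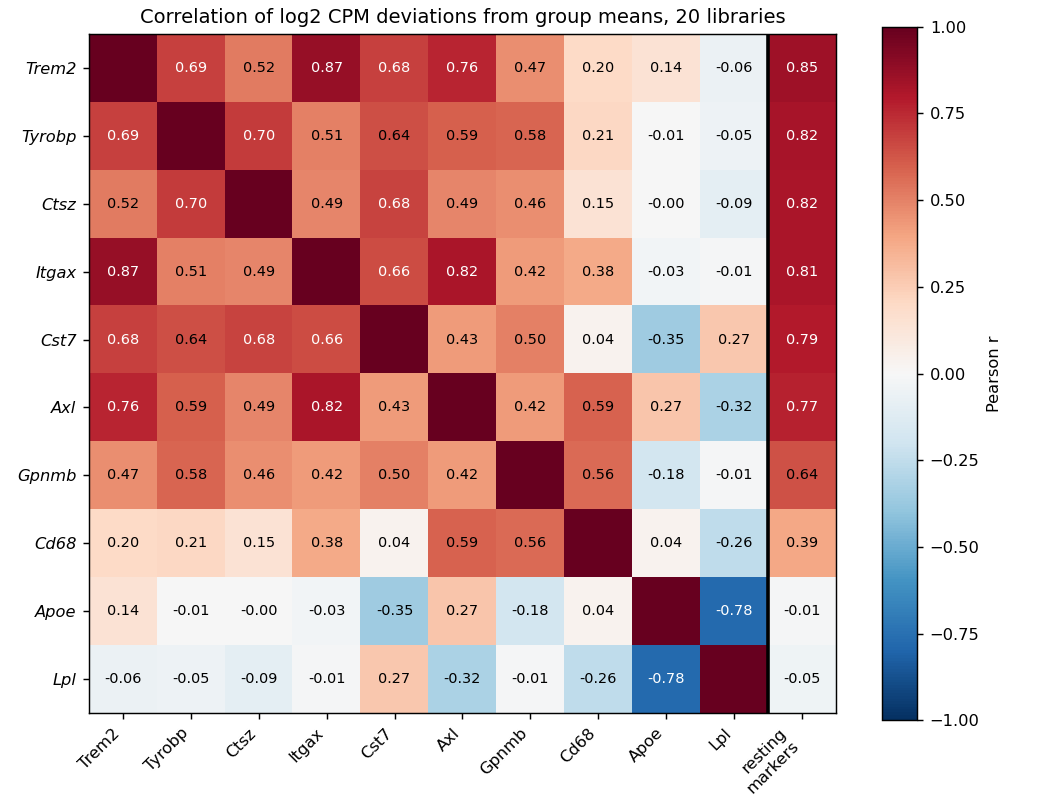
Pearson's r between genes (rows and columns) of the deviations of log2 CPM from group means over 20 libraries, with the summed resting microglia markers in the last column; red is positive and blue negative. The 6 genes Trem2, Tyrobp, Ctsz, Itgax, Cst7 and Axl follow the resting markers at 0.77 to 0.85 and each other at 0.43 to 0.87. Apoe and Lpl have -0.78 with each other.

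The transcripts most like each gene over the same deviations were mostly not listed microglial genes. Of the 20 nearest neighbours, 2 for each gene, 0 were among the 10 genes and 2 were in the microglial lists, both of them Lag3, an immune checkpoint receptor, which followed Itgax (r = 0.96) and Trem2 (0.92). Trem2 was next closest to Cd74 (0.91), the invariant chain of antigen presentation. Ctsz was closest to Il2rb (0.92) and Ifi30 (0.91), and Cst7 to Cxcl13 (0.89) and Csf2ra (0.88). For Tyrobp they were Gdpd3 (0.88) and Tgm1 (0.87), for Gpnmb Dennd4c (0.85) and Serping1 (0.81), for Axl Vav2 (0.87) and Stom (0.86), and for Cd68 Cux1 (0.81) and Abcc1 (0.80). Apoe was closest to Zer1 (0.87), and Lpl to Kpna3 (0.94) and Tpd52 (0.92).

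Whether an animal high in one tissue was high in the other was examined over 10 animals. The labels do not name animals, but same-numbered libraries of the tissues deviated together and were taken as 1 animal each. This pairing is not certain, since hippocampal replicates 1 of the 2 treatments, from different animals, also deviated together (r = 0.527). In 9 of 10 cases a hippocampal library was closest to the cortical library of its own number, and YB-1 replicate 1 was closer to cortical replicate 5 (r = 0.371) than to its own (0.205). Tyrobp deviated to the same side in 10 of 10 animals, with Pearson's r = 0.783 (exact permutation p = 0.0167, two-sided, animals reassigned within treatment) and Spearman's rho = 0.879 (exact permutation p = 0.00278). Ctsz did so in 9 of 10, with r = 0.78 (exact permutation p = 0.00597) and rho = 0.77 (exact permutation p = 0.0162). Neither passed after adjustment over all 14616 genes (adjusted p = 0.42 and 0.344 for r, 0.434 and 0.475 for rho, permutation tests). Without the 2 animals farthest from the median, r was 0.693 for Tyrobp and 0.959 for Ctsz.

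At an unadjusted p under 0.05 with r above 0 there were thus 2 of 10 genes, against 8.79% of all genes, and by rho 3 of 10 (with Axl, rho = 0.673, exact permutation p = 0.0483), against 8.13%. The median r was 0.49 over the 10 genes and 0.24 over all genes, of which 72.6% had a positive r. Gpnmb (r = 0.14), Cd68 (0.0895) and Trem2 (0.371) had exact permutation p-values of 0.322 to 0.874, and Lpl was at -0.339 (exact permutation p = 0.498). For Itgax, r fell from 0.648 to 0.101 without HSP70 animal 5 and YB-1 animal 4, so its value rested on those animals. Cst7 was at 0.586 and Apoe at 0.421 (exact permutation p = 0.141 and 0.247). Without the 2 farthest animals Lpl turned to 0.209, Cd68 was at 0.419, Gpnmb at 0.328 and Cst7 at 0.851, so these values too moved with those animals.

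**Figure D4:**
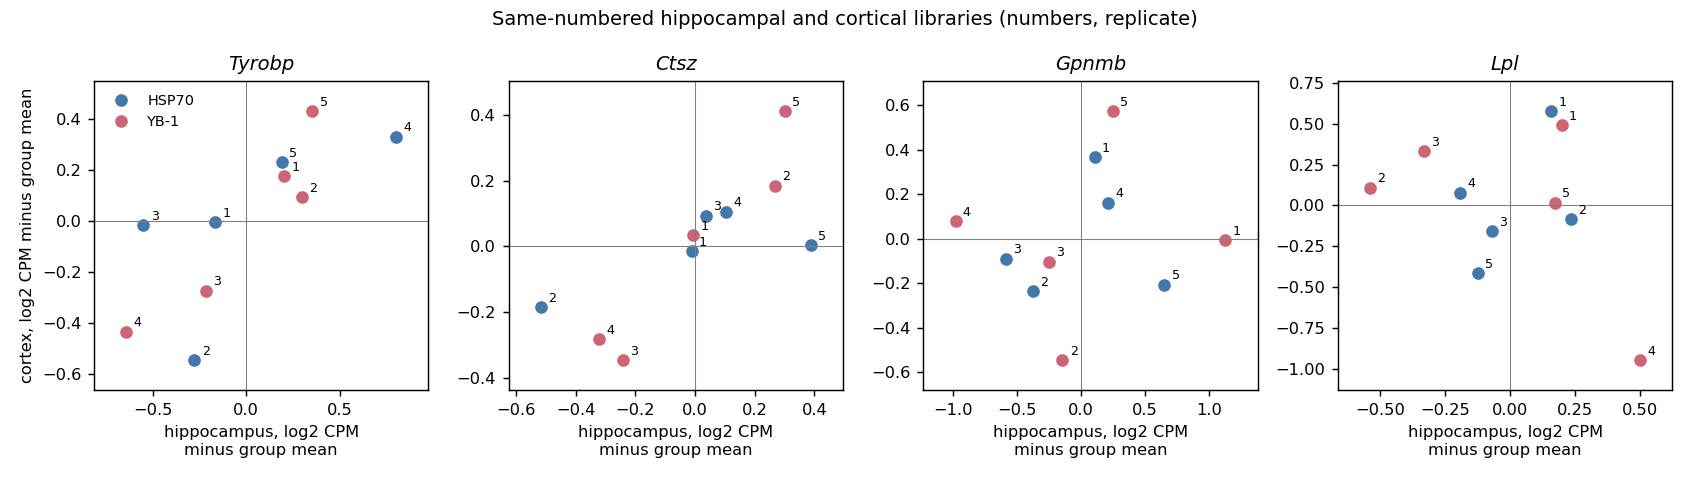
Deviation of log2 CPM from the group mean in the hippocampus (horizontal axes) against that in the cortex (vertical axes) of same-numbered libraries, for 4 genes. Each point is a pair of same-numbered libraries, taken as 1 animal, numbered by replicate and coloured by treatment. Tyrobp and Ctsz run along the diagonal (r = 0.783 and 0.78), and Gpnmb and Lpl do not (0.14 and -0.339).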

How the data were processed

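For each library the authors deposited 1 table of unnormalised read counts by Ensembl gene. The submitters' processing notes name GRCm39, featureCounts, STAR and Trimmomatic. Tool versions, gene annotation and strand setting: not given in the sources used here. Reads of overlapping or antisense genes may therefore be mixed. The 12 summary entries were left out; they held 2.45% to 4.58% of reads outside genes and 4.12% to 4.58% ambiguous reads.

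Symbols and exon lengths came from GENCODE M21 by identifier, and promoters from RefSeq (GRCm38.p6) by symbol. The test on counts was that of edgeR 4.0.16, run in R 4.3.3 (TMM scaling, filterByExpr, robust quasi-likelihood fit, two-sided F-test, Benjamini-Hochberg adjustment over all genes tested, threshold 0.05). Treatments were compared within each tissue, the interaction and tissues in a model of 4 groups. CPM were scaled by TMM; a prior count of 2 was added for log2 CPM. No library pair of a group was a duplicate (chi-square per degree of freedom at least 10.1). The labels do not say whether libraries of a group are separate animals, so p-values measure only the spread between them. The gene tests were checked on simulated counts.

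Same-numbered hippocampal and cortical libraries deviated together (r = 0.182 to 0.658 with HSP70, 0.205 to 0.403 with YB-1, all 10 above 0.1). The numbers were therefore taken to pair the tissues. Between treatments, where same numbers mark different animals, r was -0.298 to 0.527. It was above 0.1 in 1 of 5 hippocampal and 3 of 5 cortical pairs. The highest, 0.527 for hippocampal replicates 1, exceeded most values within treatments, so the pairing is not certain. The concordance of tissues was adjusted over all genes, in place of the members as first planned. The 10 genes and 17 other lists were chosen with earlier results of these data known. Named are all 10 genes, genes of each list taken from its 2 smallest p-values in each tissue and its 2 markers listed first, and the 2 transcripts most like each gene; a few that the rule names are not reported here. Alternatives were DESeq2 1.42.0, limma 3.58.1 (voom with quality weights), RLE scaling, no low-count filter, Bc1 left out, 1 model for all groups, replicate or animal blocks, thinned cortical counts, a prior count of 0.5 and leaving out each library.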

Additional observations from a re-analysis of the deposited data

Results flagged for a closer look

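Among 40 sets of 5 libraries (10 genes in 4 groups), 5 values stood apart from the rest of their group by a gap of over 0.71 of the group's range; chance alone flags about 1 set in 20. In the hippocampus with HSP70, Trem2 was at 60.8 CPM in replicate 4, against 33.4 CPM in the next library, and that library also had the highest resting marker sum of its group, 1823 CPM. In the hippocampus with YB-1, Axl was at 75.8 CPM in replicate 4, against 122 CPM in the next, and that library had the lowest resting marker sum of its group, 1070 CPM. In the cortex with YB-1, replicate 5 held both Cst7 at 16.1 CPM (next 5.56 CPM) and Axl at 156 CPM (next 122 CPM), with the highest resting marker sum of all 20 libraries, 2797 CPM. In the cortex with HSP70, Apoe was at 2820 CPM in replicate 1, against 3986 CPM in the next library. That library stood apart as a whole, at a chi-square per degree of freedom of 61.6 to 100.7 against the others of its group. Among those others it was 12.9 to 34.8. Bc1, a noncoding RNA, held 6.03% of its assigned reads, against 13.8% to 17.9% in the others. Over all libraries that share ran from 3.92% to 20.8%. The part of microglial content in the 5 flagged values was not tested.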

How the results depend on the processing

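For the 10 genes in the 5 comparisons, 323 of 330 values under other settings and 770 of 800 values without 1 library kept their direction and their side of the threshold. The 800 include tissue comparisons without a library of the other treatment. Such a library enters only through the shared fit, so these values could hardly change. In the treatment and interaction comparisons the adjusted p of the 10 genes was at least 0.597 in edgeR. The side of the threshold there had little room to change, so these shares mostly count kept directions. The cortical treatment comparison called 0 genes in edgeR (774 at an unadjusted p under 0.05), 1 with limma-voom (1003), 4 with DESeq2 (1080), 9 without the low-count filter, 1 after thinning to equal depth and 0 to 1 without single libraries, the 1 without HSP70 replicate 3. Of the 10 genes it called 0, and 1 (Gpnmb) with DESeq2 or without the filter. The hippocampal comparison called 0 genes under every setting run (329 at an unadjusted p under 0.05, 518 with DESeq2). With the replicate number as a block it called 0 genes in each tissue, and the block changed no call of the treatment comparisons or the interaction. With the animal as a block 1777 and 1224 genes were called between tissues with HSP70 and YB-1, against 1259 and 952, and of the 10 genes 2 and 1 against 1 and 1. Limma-voom turned the sign of Apoe (-0.10) and Lpl (0.15) between treatments in the cortex, of Apoe for the interaction (0.14) and of Tyrobp between tissues with HSP70 (-0.07); the cause was not tested. Without 1 library the log2 fold change crossed 0 in the hippocampal treatment comparison for Apoe (-0.04 to 0.06), Cd68 (-0.02 to 0.28) and Tyrobp (-0.05 to 0.34), and in the cortical one for Apoe (-0.05 to 0.12) and Lpl (-0.18 to 0.12). It did so for the interaction for Apoe (-0.10 to 0.05), Cst7 (-0.10 to 0.96), Ctsz (-0.09 to 0.15) and Trem2 (-0.42 to 0.08). Between tissues it did so for Cd68 (-0.03 to 0.14), Trem2 (-0.36 to 0.14) and Tyrobp (-0.11 to 0.27) with HSP70 and for Axl (-0.15 to 0.02) and Ctsz (-0.20 to 0.01) with YB-1. Cst7 and Itgax rested on as few as 7 and 13 reads in a library; how far depth limits each gene was not compared.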
